A study of Homo sapiens with 6 samples.

Results

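Transcription factor and marker genes of the epithelial-mesenchymal transition, 10 in all, were followed across RNA sequencing libraries of a lung carcinoma line with and without a short hairpin RNA (shRNA) against PPM1G. They were 5 transcription factor genes (SNAI1, SNAI2, ZEB1, ZEB2 and TWIST1), the epithelial surface genes CDH1 and EPCAM, and the mesenchymal genes CDH2, VIM and FN1. They were chosen by symbol, and all 10 of 10 were found among the 17534 genes of the deposited tables. The cells were labelled NCI-H1703, an established line described by the labels as lung squamous cell carcinoma. The PPM1G shRNA group held 3 libraries with the genotype Sh-PPM1G. The control group held 3 libraries with the genotype Sh-NC, although the design text calls the control cells wild-type. The sources used here give neither the number of hairpins or clones nor the culture behind each library, so p-values measure the spread between these libraries, which may be technical.

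In the epithelial-mesenchymal transition, epithelial cells lose cell-to-cell junctions and polarity and take on a motile, matrix-producing state. The SNAIL (SNAI1, SNAI2), ZEB and TWIST factors are known to drive it, and SNAIL and ZEB factors repress the E-cadherin gene CDH1 by binding E-box sequences in its promoter. N-cadherin (CDH2), the intermediate filament protein vimentin (VIM) and the matrix protein fibronectin (FN1) are the markers most often read for the mesenchymal state. In carcinomas, intermediate states that hold genes of both sides are well known.

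The libraries held 31337553 to 35838246 counts, and each level rests on that depth. PPM1G itself had 182, 194 and 188 CPM (counts scaled to library size with TMM factors) in the PPM1G shRNA libraries, against 333, 308 and 324 CPM in the control libraries, a log2 fold change of −0.77 (SE 0.03, adjusted p = 3.3e-20, edgeR). The labelled squamous type was checked against 8 markers, of which 7 were analysed here. Their summed level was 11.3 to 12.4 CPM in PPM1G shRNA libraries and 23.3 to 26.5 CPM in control libraries, mostly from SOX2. The basal keratin gene KRT14 had 6 counts and KRT6A had 2 counts over all 6 libraries, and TP63 had 247. NKX2-1, a lineage factor of lung adenocarcinoma, averaged 52.6 FPKM (fragments scaled by gene length and library total) in PPM1G shRNA libraries and 46.1 FPKM in control libraries, a difference that was not called. Of the other 5 genes in the lung adenocarcinoma and alveolar list, NAPSA rose (21.8 CPM in PPM1G shRNA and 2.16 CPM in control libraries), SFTPC was at 0 in all libraries, and SFTPB, SFTPA1 and FOXA2 had 10, 17 and 4 counts over all 6 libraries. PDGFRA, a receptor gene known to be amplified in NCI-H1703 and looked up after its values were seen, had 34 counts over all 6 libraries. The squamous label is therefore not borne out by these markers, and the cells are called by their label only. Of 7 leukocyte markers, 2 were tested: CD68, which many tumour cells also express, at 566 CPM in PPM1G shRNA and 1270 CPM in control libraries, and ITGAM at 0.443 CPM and 0.0292 CPM. PTPRC, CD3E, LYZ and CD14 had 4 to 26 counts over all 6 libraries. The summed level of the 7 leukocyte markers, almost all CD68, was 551 to 583 CPM in PPM1G shRNA libraries and 1240 to 1300 CPM in control libraries. The 6 endothelial markers summed to 3.69 to 4.78 CPM in PPM1G shRNA libraries and 5.22 to 7.37 CPM in control libraries. The 3 that were tested moved both ways by edgeR's test: PECAM1 fell to 1.07 CPM in PPM1G shRNA against 5.31 CPM in control libraries, while VWF rose to 2.58 CPM against 0.524 CPM and KDR to 0.429 CPM against 0.126 CPM. CDH5 had 6 counts, TEK 20 and CLDN5 1 over all libraries. The 7 fibroblast markers summed to 510 to 518 CPM in PPM1G shRNA libraries and 315 to 336 CPM in control libraries, mostly from COL1A1 and THY1. Of the 4 tested, COL1A1 (344 CPM in PPM1G shRNA and 154 CPM in control libraries) and PDGFRB (9.48 CPM and 3.95 CPM) rose, COL1A2 fell (3.96 CPM and 6.42 CPM), and THY1 stood at 156 CPM and 161 CPM with no call. COL3A1, DCN and LUM had 23, 50 and 2 counts over all libraries. The part of these markers in the results below was not tested.

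The transition genes split in the PPM1G shRNA libraries rather than moving as a block. SNAI2, FN1 and ZEB2 rose, VIM fell, CDH2 and ZEB1 were slightly lower, and CDH1, EPCAM and SNAI1 were not called. Of the 10 genes, 9 had enough counts to be tested, and TWIST1 did not. By edgeR's quasi-likelihood test at an adjusted p under 0.05, 3 of the 9 rose (SNAI2, FN1, ZEB2) and 3 fell (VIM, ZEB1, CDH2). Across all 13060 genes tested 82.9% were called, 41.5% higher and 41.3% lower in PPM1G shRNA, so that being called is the usual state of a gene here, and 6 of 9 is no more than that share. The median size of the log2 fold change was 0.19 over the 9 genes and 0.54 over all genes tested. The TMM-scaled values of PPM1G shRNA and control libraries stood fully apart for 83.7% of all genes tested, 41.9% higher and 41.8% lower in PPM1G shRNA, and among the 9 genes for 3 higher and 3 lower. In bulk RNA, fewer cells that express a gene and less of its RNA per cell cannot be told apart. Changes of at least 2-fold were called for 24.2% of all genes tested and for 2 of the 9, SNAI2 and FN1.

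**Figure D1:**
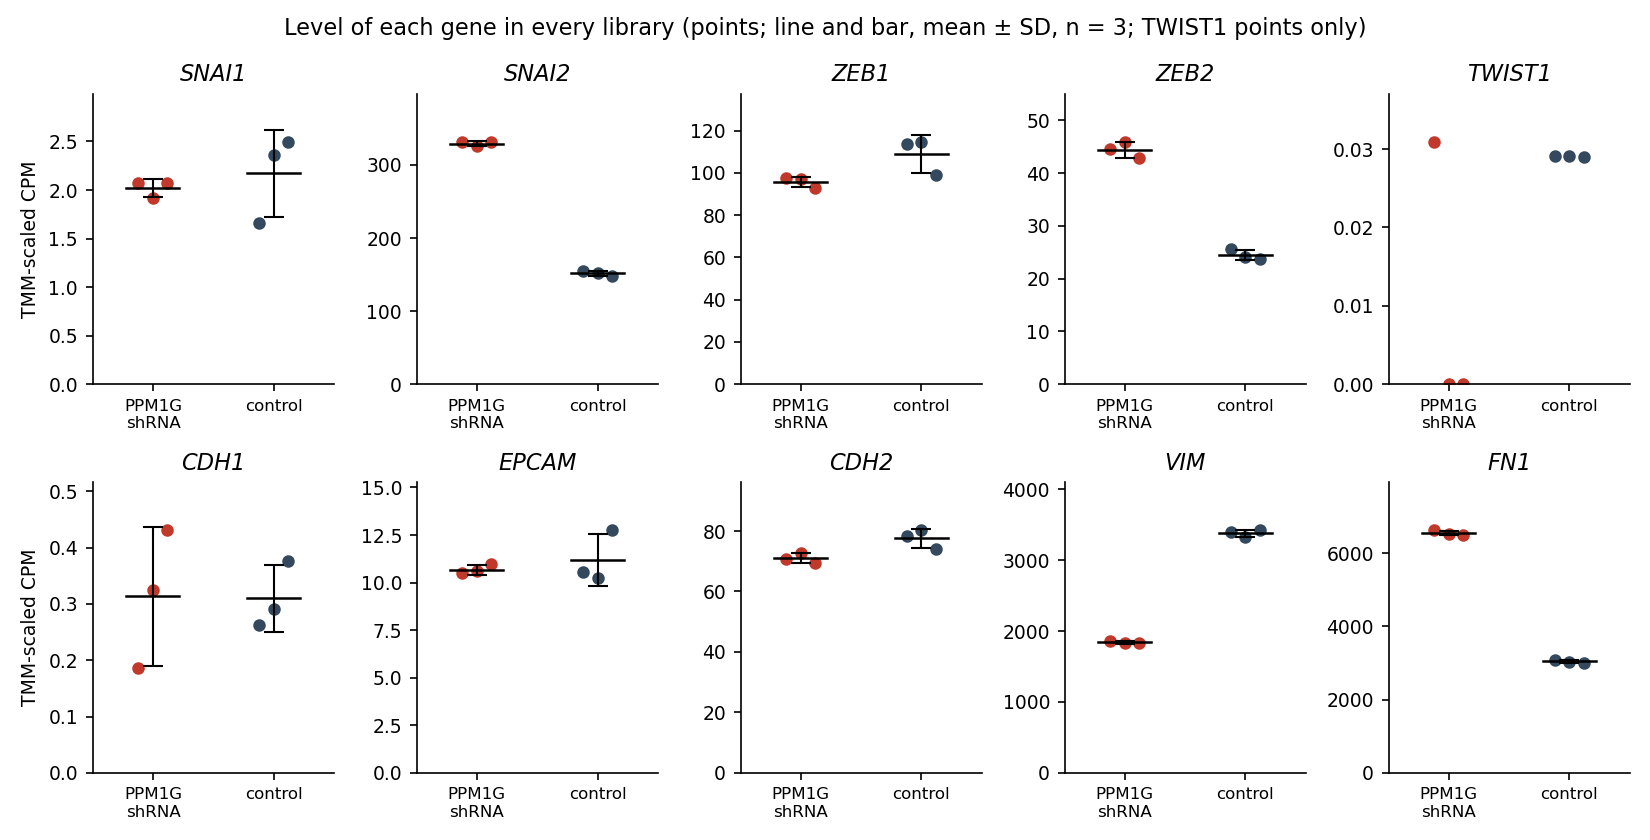
Level of each of the 10 genes in TMM-scaled CPM (vertical axes, each from 0) in the 3 PPM1G shRNA libraries (red, left) and the 3 control libraries (dark, right), with mean and SD except for TWIST1. SNAI2, ZEB2 and FN1 sit higher and VIM sits lower in all PPM1G shRNA libraries, while CDH1, EPCAM and SNAI1 overlap between groups.

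The SNAIL paralogs stood far apart in level. SNAI2 encodes SLUG, a zinc finger repressor that is also a regulator of neural crest and basal epithelial cells. SNAI2 was at 332, 326 and 331 CPM in PPM1G shRNA libraries, against 155, 152 and 148 CPM in control libraries. The groups lie far apart, and each is tight. SNAI2 averaged 329 ± 3.19 CPM in PPM1G shRNA and 152 ± 3.09 CPM in control libraries (SD, n = 3 each), a log2 fold change of 1.12 (SE 0.03, adjusted p = 9.5e-26, edgeR). SNAI1, which encodes the founding SNAIL repressor, was at 2.07, 1.92 and 2.07 CPM in PPM1G shRNA libraries, against 1.66, 2.36 and 2.50 CPM in control libraries. Its groups overlap, and the control libraries varied with a coefficient of variation of 20.6%, where counting alone gives 11.6%. The log2 fold change of SNAI1 was −0.11 with a 95% interval of −0.55 to 0.34 (adjusted p = 0.66, edgeR), which spans folds of 0.684 to 1.26. Per length, SNAI2 stood at 156 FPKM in PPM1G shRNA and 67.2 FPKM in control libraries, and SNAI1 at 1.23 FPKM in both groups. SNAI2 ranked 231 to 238 among 17534 genes by FPKM in PPM1G shRNA libraries and 845 to 890 in control libraries, while SNAI1 ranked 10570 to 10664 in PPM1G shRNA libraries and 10322 to 10831 in control libraries.

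The ZEB paralogs moved apart. ZEB2, a zinc finger and homeodomain repressor that also binds SMAD proteins, was at 44.6, 45.9 and 42.9 CPM in PPM1G shRNA libraries, against 25.6, 24.1 and 23.7 CPM in control libraries. No library of one group reached the range of the other. ZEB2 rose 1.82-fold, a log2 fold change of 0.86 (SE 0.06, adjusted p = 1.7e-15, edgeR). ZEB1, the paralog most often tied to E-cadherin loss in lung cancer lines, was at 97.4, 96.9 and 92.9 CPM in PPM1G shRNA libraries, against 113.5, 114.6 and 98.7 CPM in control libraries. Control library 3 lies close to the PPM1G shRNA libraries, and the other 2 control libraries stand apart from them. ZEB1 had a log2 fold change of −0.19 (SE 0.05, adjusted p = 0.00052, edgeR). That fall depends on the scaling: with library totals alone it was −0.09 (adjusted p = 0.08, edgeR), and on log2(FPKM + 1) it was −0.08 (adjusted p = 0.22, limma). ZEB1 remained the more abundant of the pair, at 12.1 FPKM in PPM1G shRNA and 12.8 FPKM in control libraries, against 4.97 and 2.55 FPKM for ZEB2 in the same groups. ZEB2 made up 28.8%, 29.6% and 29% of the summed ZEB1 and ZEB2 FPKM in PPM1G shRNA libraries, against 16.6%, 15.7% and 17.5% in control libraries. These shares do not depend on library scaling, and the groups do not overlap.

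The start regions of the ZEB genes were read for E-boxes of the kind these factors bind. Windows of 300 bases (250 before and 50 after an annotated start) came from RefSeq on GRCh38.p14, which had windows for 5 of the 10 genes: FN1, VIM, CDH2, ZEB1 and ZEB2. They were searched on both strands for the SNAIL and ZEB E-box (CACCTG), the CREB and ATF response element (TGACGTCA), the AP-1 site (TGANTCA) and the GC box (GGGCGG). Over 35116 such windows, 20.6% held the E-box, 1.85% the CREB and ATF element, 7.71% the AP-1 site and 45.0% the GC box. The ZEB2 window (chr2:144520070-144520369, minus strand) held none of the 4. Of 7 ZEB1 windows, 2 held the E-box, and window 3 (chr10:31318966-31319265, plus strand) held 3 of them, at bases −242 to −237, −85 to −80 and 34 to 39 counted from the start. Window 3 is printed because it held the most E-boxes of the ZEB1 windows. With 7 windows for ZEB1 and 1 for ZEB2, and the E-box in 20.6% of all windows, the genes cannot be contrasted by these matches. In the −85 and 34 matches the letters read on the plus strand are CAGGTG. Matches are in capitals, and in the ZEB1 window the capitals also include 1 GC box on the other strand. A match describes letters only and is not a bound site.
ZEB2 start: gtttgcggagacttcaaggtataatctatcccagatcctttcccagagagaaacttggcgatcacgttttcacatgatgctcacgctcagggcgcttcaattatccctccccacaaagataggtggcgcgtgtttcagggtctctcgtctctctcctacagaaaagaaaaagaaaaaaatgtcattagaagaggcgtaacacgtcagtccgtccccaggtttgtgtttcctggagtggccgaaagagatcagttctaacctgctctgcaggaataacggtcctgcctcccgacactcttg
ZEB1 start, window 3: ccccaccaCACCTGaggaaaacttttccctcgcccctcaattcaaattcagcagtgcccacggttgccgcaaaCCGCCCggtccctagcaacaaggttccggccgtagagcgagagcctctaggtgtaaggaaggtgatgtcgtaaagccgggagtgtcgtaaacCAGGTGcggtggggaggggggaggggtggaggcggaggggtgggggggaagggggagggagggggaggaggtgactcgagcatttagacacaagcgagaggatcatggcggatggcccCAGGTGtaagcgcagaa

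TWIST1, a bHLH factor of mesoderm and neural crest, was at the limit of detection. It had 1, 0 and 0 counts in PPM1G shRNA libraries, and 1 count in each of the control libraries. Neither sum, 1 count in PPM1G shRNA and 3 counts in control libraries, exceeds the floor of 3 counts, so no fold is given. With an exact Poisson interval that covers counting error only, the 95% upper limit was 0.0542 CPM (unscaled) in PPM1G shRNA libraries and 0.0822 CPM in control libraries. Over the 5 factors, the summed level was 176, 173 and 175 FPKM in PPM1G shRNA libraries, against 85.4, 84.9 and 81.2 FPKM in control libraries. SNAI2 supplied 89.5% of it in PPM1G shRNA and 80.2% in control libraries.

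**Figure D2:**
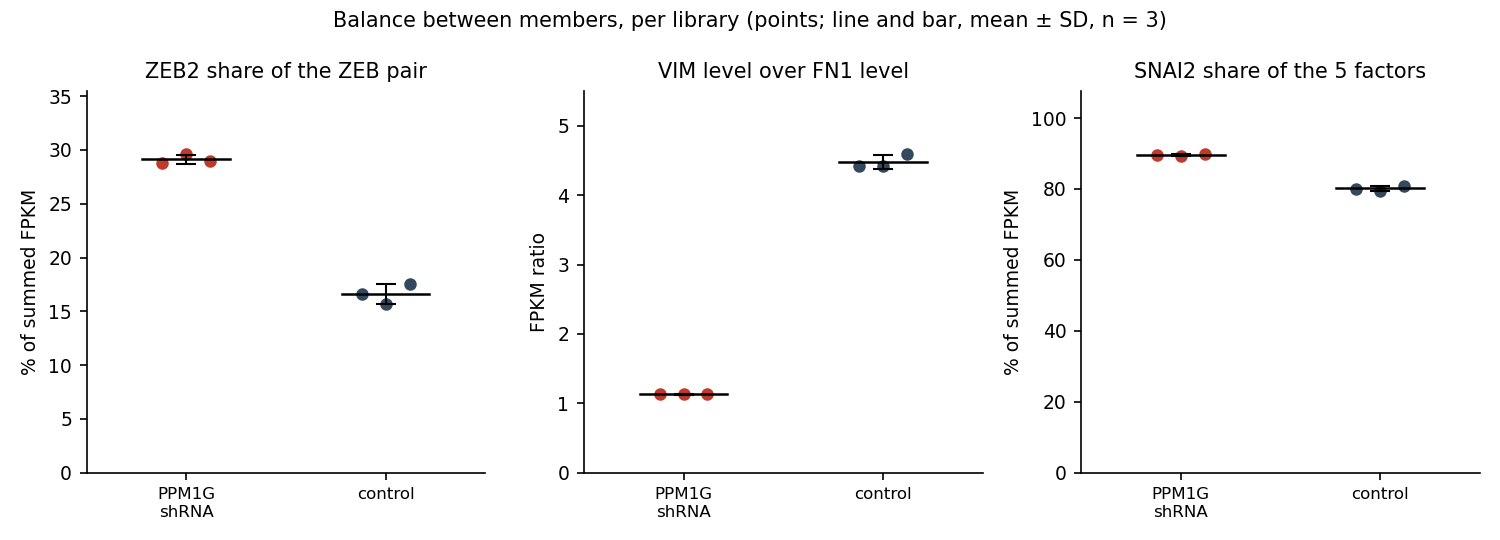
Balance between genes within each library, in the 3 PPM1G shRNA libraries (red, left) and 3 control libraries (dark, right) with mean and SD: ZEB2 as a share of ZEB1 plus ZEB2 FPKM, the ratio of VIM to FN1 FPKM, and SNAI2 as a share of the summed FPKM of the 5 factors. The ZEB2 share averaged 29.1% in PPM1G shRNA and 16.6% in control libraries, and the VIM to FN1 ratio 1.13 and 4.48.

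The epithelial genes showed no called change, from very different levels. CDH1 encodes E-cadherin, the calcium-dependent adhesion receptor of epithelial adherens junctions. CDH1 had 6, 12 and 16 counts in PPM1G shRNA libraries, against 9, 10 and 13 counts in control libraries. The groups overlap at a level of 0.0675 FPKM in PPM1G shRNA and 0.0623 FPKM in control libraries, and CDH1 ranked no higher than 12876 among 17534 genes. The log2 fold change of CDH1 was 0.03 with a 95% interval of −0.92 to 0.99 (adjusted p = 0.95, edgeR). Folds of 0.529 to 1.98 lie within that interval, so differences within those bounds are not excluded for CDH1 at this depth. EPCAM, a surface glycoprotein of most simple epithelia and carcinomas, was readily detected, at 10.5, 10.6 and 11 CPM in PPM1G shRNA libraries, against 10.5, 10.3 and 12.7 CPM in control libraries. Control library 3 was the highest and the other 5 lay close together. EPCAM had a log2 fold change of −0.06 with a 95% interval of −0.26 to 0.13 (adjusted p = 0.53, edgeR), a fold of 0.836 to 1.09. Per length, EPCAM stood at 7.15 FPKM in PPM1G shRNA and 6.98 FPKM in control libraries, more than 79-fold above CDH1 in every library.

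Among the mesenchymal genes, the cadherin, the filament and the matrix gene each behaved differently. CDH2 encodes N-cadherin, the cadherin of neural and mesenchymal cells, and was at 70.8, 72.7 and 69.5 CPM in PPM1G shRNA libraries, against 78.4, 80.2 and 74.2 CPM in control libraries. The TMM-scaled ranges do not overlap, but the gap is narrow. CDH2 had a log2 fold change of −0.13 (SE 0.04, adjusted p = 0.0066, edgeR). The call depends on the scaling: the value was −0.09 (adjusted p = 0.054, edgeR) with upper-quartile factors, −0.03 (adjusted p = 0.54, edgeR) with library totals alone, and −0.03 (adjusted p = 0.54, limma) on log2(FPKM + 1). In FPKM, which uses plain totals, CDH2 averaged 16 ± 0.374 in PPM1G shRNA and 16.4 ± 0.67 in control libraries (SD, n = 3 each), with overlapping ranges. N-cadherin transcripts outnumbered E-cadherin transcripts by 169-fold to 401-fold in PPM1G shRNA libraries and by 206-fold to 313-fold in control libraries, ratios whose spread follows the few CDH1 counts.

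VIM and FN1 were the most abundant of the 10 genes and moved in opposite directions. VIM encodes vimentin, the intermediate filament protein of mesenchymal cells. VIM was at 1857, 1828 and 1831 CPM in PPM1G shRNA libraries, against 3392, 3322 and 3420 CPM in control libraries. The groups are far apart and each is tight, with a coefficient of variation of 0.863% in PPM1G shRNA and 1.5% in control libraries. VIM fell to 0.544 of its control level, a log2 fold change of −0.88 (SE 0.02, adjusted p = 1.2e-25, edgeR). FN1 encodes fibronectin, a secreted glycoprotein that integrins bind, and was at 6616, 6519 and 6499 CPM in PPM1G shRNA libraries, against 3090, 3028 and 3006 CPM in control libraries. Again no library overlapped between groups. FN1 rose 2.15-fold, a log2 fold change of 1.11 (SE 0.02, adjusted p = 1.2e-28, edgeR). VIM ranked 21 to 22 among 17534 genes by FPKM in PPM1G shRNA libraries and 10 to 11 in control libraries, and FN1 ranked 24 to 25 in PPM1G shRNA libraries and 100 to 106 in control libraries. In PPM1G shRNA libraries the level of VIM was 1.13, 1.13 and 1.14 times that of FN1 per length, against 4.42, 4.42 and 4.59 times in control libraries. FN1 took 0.678% of all counts in PPM1G shRNA and 0.294% in control libraries, and VIM 0.19% and 0.326%.

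**Figure D3:**
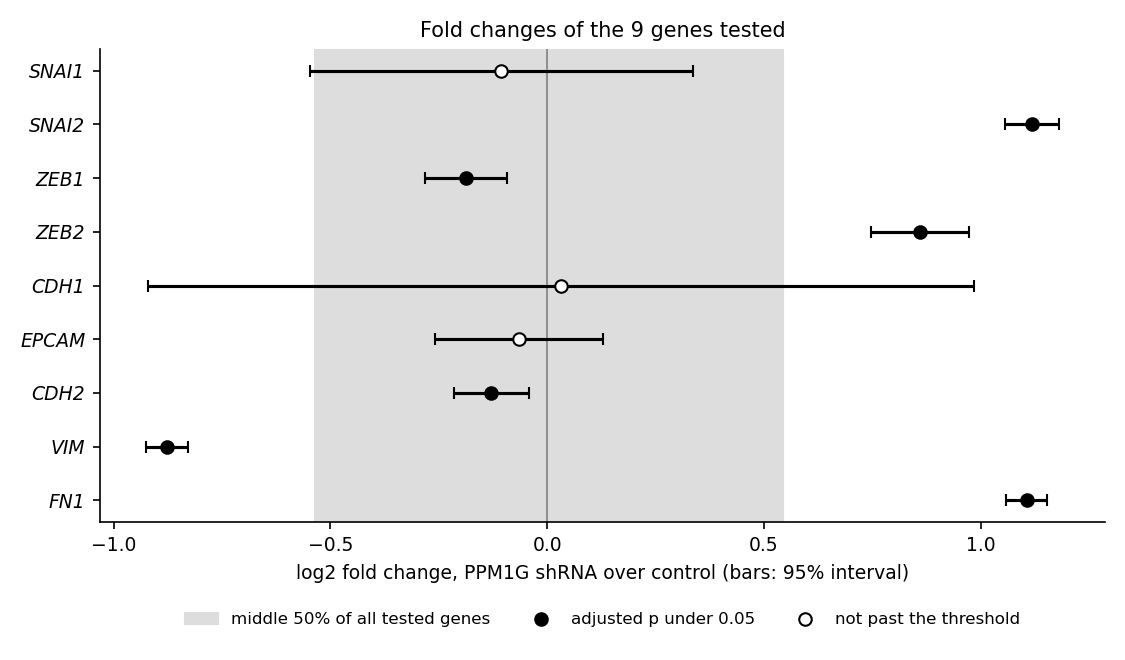
Log2 fold change of PPM1G shRNA over control (horizontal axis) for the 9 genes tested, with 95% intervals from edgeR's fit, filled where the adjusted p was under 0.05, and a grey band for the middle 50% of all 13060 genes tested. SNAI2, FN1 and ZEB2 lie to the right of the band and VIM to the left, while ZEB1, CDH2, EPCAM and SNAI1 lie within 0.19 of 0.

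The FN1 and VIM start regions are printed because FN1 had the largest rise and VIM the largest fall among the 5 genes whose windows were used. SNAI2 is not among those 5. The FN1 window (chr2:215436019-215436318, minus strand) held 1 CREB and ATF element, at bases −183 to −176, and 6 GC boxes, some of which share bases. It held no E-box of the searched letters, and its GC content was 76.7%. The VIM window (chr10:17227991-17228290, plus strand) held 1 GC box, at bases −46 to −41, and had a GC content of 48.0%. Of the 5 genes whose windows were used, FN1 was the one with the CREB and ATF element, which 1.85% of all windows hold. Capitals mark the matches.
FN1 start: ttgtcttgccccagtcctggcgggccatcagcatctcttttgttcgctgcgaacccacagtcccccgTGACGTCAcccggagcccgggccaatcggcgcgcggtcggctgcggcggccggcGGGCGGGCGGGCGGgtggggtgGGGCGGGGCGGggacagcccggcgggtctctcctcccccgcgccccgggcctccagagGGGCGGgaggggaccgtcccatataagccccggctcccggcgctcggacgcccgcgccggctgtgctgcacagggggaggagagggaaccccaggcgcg
VIM start: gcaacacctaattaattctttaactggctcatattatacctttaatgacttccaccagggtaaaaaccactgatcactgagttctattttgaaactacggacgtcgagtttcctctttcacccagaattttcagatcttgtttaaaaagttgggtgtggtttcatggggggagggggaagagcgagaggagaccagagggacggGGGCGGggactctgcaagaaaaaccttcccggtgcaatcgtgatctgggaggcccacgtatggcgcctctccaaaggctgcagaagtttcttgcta

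On GRCh38.p14, SNAI1 lies at chr20:49982980-49988886, SNAI2 at chr8:48917598-48921429, ZEB1 at chr10:31318417-31529804, ZEB2 at chr2:144384081-144520119 and TWIST1 at chr7:19113047-19117636. CDH1 lies at chr16:68737292-68835537, EPCAM at chr2:47369311-47387020, CDH2 at chr18:27932879-28177130, VIM at chr10:17228241-17237593 and FN1 at chr2:215360865-215436068. Thus 2 of the 3 genes that rose (ZEB2 and FN1) and the uncalled EPCAM lie on chromosome 2, and the 2 called genes VIM and ZEB1, both lower, lie on chromosome 10. In the GENCODE annotation, antisense transcripts share exonic bases with VIM (12.4% of its exonic bases with VIM-AS1), CDH1 (5.62%), ZEB2 (5.18%), ZEB1 (4.23%), CDH2 (2.75%) and TWIST1 (6.94%). Since no strand setting is stated, reads from such partners cannot be told apart from those of the gene. SNAI1, SNAI2, EPCAM and FN1 shared no exonic base with another gene in that annotation.

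Likeness across the 6 libraries was measured as the Euclidean distance between centred log2 CPM values, over 10142 other genes with a mean log2 CPM of at least 3. The genes nearest to SNAI2, the largest rise, were TRAM2 (distance 0.03 on the log2 scale), FN1 (0.03) and FTL (0.03), with log2 fold changes of 1.14, 1.11 and 1.13. FN1 was thus the second nearest of 10142 genes to SNAI2. The genes nearest to VIM, the largest fall, were TXN (0.03), YWHAE (0.04) and PA2G4 (0.04), with log2 fold changes of −0.87, −0.90 and −0.87. With 2 groups and tight replicates, this distance mostly reflects an equal fold change.

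Genes around the 10 were then read from lists written from textbook knowledge, beside a median log2 fold change of 0.015 over all genes tested. For every count below, 41.5% of all genes tested were called higher and 41.3% lower in PPM1G shRNA libraries. Among 9 tested of 13 other factors able to drive the transition, 2 rose and 6 fell (median −0.45). SOX4, a progenitor factor of the SOX family, rose by 1.25 (log2, SE 0.05) and KLF8 by 0.75 (SE 0.10), while the E-protein genes TCF4 and TCF3, partners of bHLH factors, fell by 0.82 (SE 0.10) and 0.58 (SE 0.04). Among 9 tested of 16 factors of the epithelial state, 5 rose and 1 fell (median 0.46). KLF4 averaged 86.5 ± 1.9 CPM in PPM1G shRNA and 25.7 ± 0.67 CPM in control libraries (SD, n = 3 each), a log2 fold change of 1.75 (SE 0.05). KLF5 rose by 0.75 (log2, SE 0.04), and ELF3, an epithelial ETS factor, rose by 3.31 (SE 0.45) at low level, with 1.09 CPM in PPM1G shRNA and 0.107 CPM in control libraries. TP63, the basal epithelial factor, fell at low level (0.835 CPM in PPM1G shRNA and 1.54 CPM in control libraries). GRHL2, which is known to uphold CDH1 in epithelia, had 1 count over all libraries, and ESRP1, an epithelial splicing factor, had 61.

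Junction genes moved both ways. In the adherens junction list, 6 of 15 tested rose and 6 fell (median 0.04). ARVCF, a catenin of the p120 family, averaged 22.1 CPM in PPM1G shRNA and 3.82 CPM in control libraries (log2 fold change 2.53, SE 0.10). NECTIN4 rose by 2.54 (log2, SE 0.34) at under 2 CPM, while NECTIN1 fell by 2.45 (SE 0.05), to 21.1 CPM in PPM1G shRNA against 115 CPM in control libraries. Of 21 other cadherins 6 were tested, of which 3 rose (CDH3, CDH24 and CDH18) and 1 fell (median 0.27). CDH3, which encodes P-cadherin of basal epithelia, averaged 18.0 ± 0.98 CPM in PPM1G shRNA and 7.08 ± 0.30 CPM in control libraries (log2 fold change 1.35, SE 0.09). CDH11, a cadherin of mesenchymal cells, averaged 14.5 ± 0.80 CPM in PPM1G shRNA and 39.6 ± 1.7 CPM in control libraries (log2 fold change −1.44, SE 0.07; SD, n = 3 each). In the tight junction and polarity list, 13 of 20 tested rose and 6 fell (median 0.27). The tricellulin gene MARVELD2 rose by 1.89 (log2, SE 0.13), TJP3 by 2.73 (SE 0.29) and the polarity gene LLGL2 by 1.47 (SE 0.50), the last at 0.595 CPM in PPM1G shRNA and 0.213 CPM in control libraries with overlapping groups. Of 6 desmosome genes tested, 2 rose and 4 fell (median −0.12), with the plakophilin gene PKP3 rising by 1.39 (log2, SE 0.06), DSC2 by 0.16 (SE 0.08), and PKP4 and PERP falling by 0.68 (SE 0.04) and 0.57 (SE 0.04). The number of desmosome genes that rose was 1 when any PPM1G shRNA library or control library 2 was left out. Of 9 tested epithelial surface genes 2 rose and 3 fell (median 0.00176): the tricellular junction gene LSR rose by 1.59 (log2, SE 0.28), and CD24 fell by 1.18 (SE 0.04), with the protease inhibitor genes SPINT1 and SPINT2 lower at under 2 CPM.

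Of 27 tested of 34 other mesenchymal, matrix and contractile genes, 4 rose and 19 fell (median −0.27), where 41.3% of all genes tested fell. Falls of at least 2-fold were called for 9 of the 27. Among all genes tested, changes of at least 2-fold were called for 24.2%. Rises of that size made up 11.8% of all genes tested, and falls of that size the remainder of the 24.2%. In the fits on log2(FPKM + 1) 7 rose and 14 fell, and with library totals alone 6 rose and 15 fell. The matrix genes VCAN and TNC fell by 2.85 (log2, SE 0.06) and 2.41 (SE 0.03), with TNC at 394 ± 5.4 CPM in PPM1G shRNA and 2090 ± 91 CPM in control libraries (SD, n = 3 each). LGALS1, which encodes a galectin, fell by 1.68 (log2, SE 0.08) and NT5E, the CD73 gene, by 1.58 (SE 0.03). The summed level of the 34 genes was 6900 to 6960 CPM in PPM1G shRNA libraries and 11600 to 12000 CPM in control libraries. VIM shared the direction of these 19 genes and FN1 did not.

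Regulators of the factors were read last. Of 18 tested corepressor and chromatin genes that SNAIL and ZEB factors recruit, 3 rose and 10 fell (median −0.34), and with library totals alone 7 rose. The histone methyltransferase gene SUV39H1 fell by 2.22 (log2, SE 0.09), DNMT1 by 1.09 (SE 0.03) and the Polycomb gene EED by 0.89 (SE 0.06), whereas AJUBA, a LIM protein that SNAIL binds, rose by 1.92 (SE 0.04). Of 15 genes acting on the stability of the factors, 7 rose and 7 fell (median 0.08). LATS2 and the ubiquitin ligase gene SIAH1 rose by 1.54 (log2, SE 0.05) and 1.2 (SE 0.07), and the proteasome deubiquitinase gene PSMD14 and the ubiquitin ligase gene FBXL14 fell by 0.95 (SE 0.05) and 0.85 (SE 0.09). Of 13 tested signalling inducers 8 rose and 3 fell (median 0.31), with HIF1A (log2 fold change 1.08, SE 0.03), SMAD3 (0.68, SE 0.03) and SMAD4 (0.62, SE 0.04) higher and the hepatocyte growth factor receptor gene MET lower, at 3400 ± 18 CPM in PPM1G shRNA and 7080 ± 170 CPM in control libraries (SD, n = 3 each). Of 11 tested genes for proteases that cleave E-cadherin, N-cadherin or EpCAM, or for their subunits, 5 rose and 3 fell (median 0.06). BACE1 rose by 1.17 (log2, SE 0.03) and PSEN2 by 0.79 (SE 0.07). ADAM15 fell by 0.82 (SE 0.04), and MMP3 fell by 2.49 (SE 0.46) at under 1 CPM. Every gene named here as risen or fallen had an adjusted p under 0.05 in edgeR's quasi-likelihood test, the largest being 0.047 for DSC2.

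**Figure D4:**
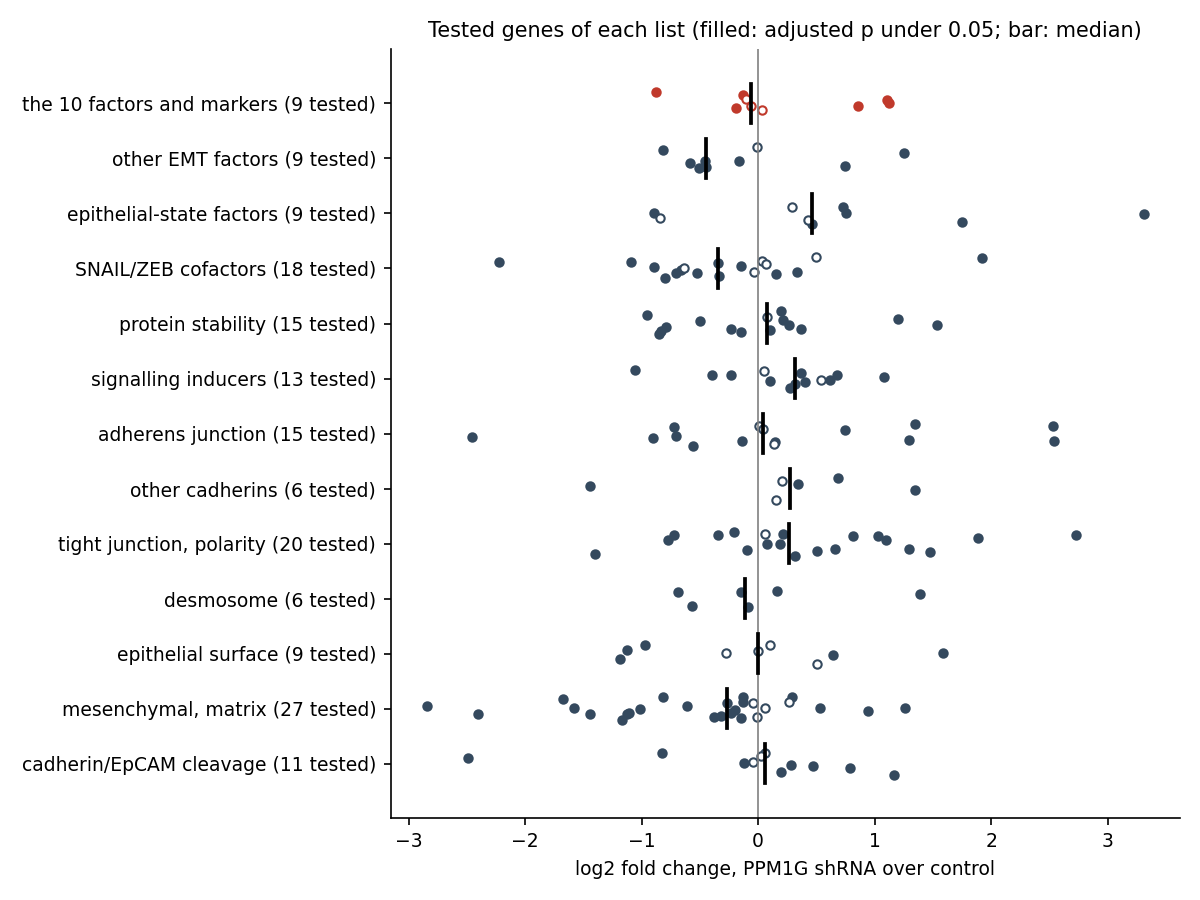
Log2 fold change of PPM1G shRNA over control (horizontal axis) for the tested genes of each list (rows), filled where the adjusted p was under 0.05, with the list's median as a bar and the 10 factors and markers in red. The median was −0.06 for the factors and markers, −0.27 for mesenchymal and matrix genes and 0.46 for epithelial-state factors, and each row plotted holds genes on both sides of 0.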

How the data were processed

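RNA sequencing libraries of cells labelled NCI-H1703 were compared, 3 PPM1G shRNA and 3 control. Per the labels' protocols, RNA was isolated with an RNeasy kit and turned into SMARTER mRNA-Seq libraries. The authors deposited a table of whole-number counts per gene, taken as not normalized from their values, and a table of FPKM values, each equal to the count over 1 length per gene and the library total. The build was GRCh38, per the submitters' processing notes. The sources used here name no aligner, counter, annotation or strand setting.

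Counts were fitted with edgeR 4.0.16 in R 4.3.3: expression filter at a minimum of 10 counts, TMM factors, robust quasi-likelihood fit with group as the only term, Benjamini-Hochberg adjustment over all genes tested and a threshold of 0.05. SE is the absolute log2 fold change over the square root of F. CPM values are TMM-scaled. Alternatives used other scalings and filters, DESeq2 1.42.0, limma 3.58.1 on FPKM, a replicate block and leaving out each library. The fit was run on simulated data with 200 changed genes, far fewer than were called here, so that run does not check the scaling. Replicates differed by more than counting noise (chi-square per degree of freedom 2.69 to 6.44), so each counted as 1 sample. The largest values were those of control library 3 against control libraries 1 (6.44) and 2 (5.88), and no other pair exceeded 3.235. Intervals of summed counts cover counting error only.

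Named genes were the 10 genes, PPM1G, up to 4 called genes with the largest change per list, and the 3 genes nearest to the largest rise and fall. The cell type markers were named as well, and PDGFRA, GRHL2, ESRP1 and TWIST2 were named outside that rule. The 10 genes and the lists were chosen with earlier results of these data known. Lists are described by counts and medians, with no test of the list. TBXT, OVOL2, CDH6, CLDN3 and KRT5, which the lists also name, were not analysed here. Some genes that the naming rule selects are not reported here.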

Additional observations from a re-analysis of the deposited data

How the results depend on the processing

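SNAI2, FN1, ZEB2 and VIM kept their direction and stayed past the threshold under all 15 alternatives, with log2 fold changes of 1.10 to 1.22, 1.10 to 1.21, 0.75 to 0.96 and −0.89 to −0.78. CDH1, EPCAM and SNAI1 were called under none of those run (14 for CDH1, which the CPM filter removes). Of the 10 genes, 3 rose and 3 fell also when any 1 library was left out. The number that fell was 1 with library totals alone and in both FPKM fits, in which CDH2 and ZEB1 lost their calls. Plain totals moved the median of all genes to 0.12 (log2) and log2(FPKM + 0.1) to 0.11, from 0.015 with TMM factors. Relative to the median of all genes, CDH2 was at −0.14 and ZEB1 at −0.20 with plain totals as with TMM factors. A change of scaling shifts all genes alike, so these values had to match and do not bear on the calls. The share of calls that were higher was 55.9% with plain totals and 50.1% with TMM factors. In the corepressor list 7 rose with plain totals and in both FPKM fits, and 5 with upper-quartile factors. In the mesenchymal list 7 rose and 14 fell in both FPKM fits, and 15 fell with plain totals. Without a low-count filter 5 signalling inducers and 2 other cadherins fell. In the desmosome list 1 rose with RLE factors and with DESeq2, and 1 to 2 when a library was left out; 2 fell with plain totals, upper-quartile factors and both FPKM fits. The cause of these shifts was not tested. Of the counts over these lists, 342 of 360 alternatives stayed within 1.5 times. The labels state no pairing of same-numbered libraries, so the replicate block was run as an alternative only. Such libraries did not deviate together (correlations of −0.0203 to 0.0142), which does not settle the design. With the block 10805 genes passed, against 10821 without, and again 3 of the 10 genes rose and 3 fell. Leaving out 1 library gave 10531 to 10836 calls. Depth limits CDH1, SNAI1 and TWIST1.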
